A study of Mus musculus with 78 samples.

Results

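The genes described here are the 174 mouse genes whose name is Zfp followed by digits and that lie on chromosomes 2, 4, 7 or 13, out of 54446 genes in the deposited expression tables. They were chosen by name and chromosome, with no measured value in the rule, and Zfp36, Zfp352, Zfp568, Zfp708, Zfp819 and Zfp989 were left out. Chromosome 2 held 25 of them, chromosome 4 held 28, chromosome 7 held 89 and chromosome 13 held 32. A further 194 genes with the same form of name lie on the other chromosomes and served as the nearest comparison.

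Zinc finger proteins of this family bind DNA through long arrays of fingers. Many carry a KRAB domain, which recruits the corepressor TRIM28 (also called KAP1), and TRIM28 in turn brings the histone methyltransferase SETDB1, which deposits H3K9me3. In embryonic stem cells this pathway silences endogenous retroviruses. The zinc finger genes themselves often lie in tandem clusters and can carry H3K9me3 over the exon that encodes the fingers, which is the last exon of most of them.

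The series holds 78 samples. Mouse V6.5 embryonic stem cells (ESCs) with a degradable FKBP tag on both Trim28 alleles, derived from a single colony, were given 500 nM dTAG-13, which degrades the tagged protein, for 2, 6, 24 or 96 h, or DMSO. The DMSO libraries are titled 0 h, while their treatment notes give DMSO for 24 h. They were expanded on irradiated fibroblast feeders and then taken off them. RNA-seq covered all of these times, and TT-SLAM-seq, which reads RNA labelled in a short pulse of 4-thiouridine, covered DMSO, 2, 6 and 24 h. Untreated parental V6.5 ESCs grown on feeders and DMSO-treated neural progenitor cells (NPCs), for which the labels do not say whether TRIM28 was tagged, were also sequenced. A further line, shREPEATS, carries doxycycline-inducible hairpins against endogenous retroviruses. It was grown on feeders, read with a total RNA kit and given DMSO, dTAG-13, or dTAG-13 with doxycycline (Dox) for 24 h, and the labels name 2 ug/mL doxycycline before treatment for all of these groups. ChIP-seq peaks for H3K9me3, H3K27Ac and RNA polymerase II (RNAPII) were available for DMSO and 24 h of dTAG-13. Each RNA group had 3 libraries. The study calls its RNA replicates biological, but neither it nor the labels say that the libraries came from separate cultures, so p-values may measure only the spread between these libraries, which may be technical.

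RNA levels are given in TPM, a length-scaled share of the library in which a value also moves when other genes move, and nascent RNA in FPKM over the whole gene. Relative read coverage ranged from 0.323 of the median library (24 h, replicate 1) to 1.73 (parental, replicate 3), and the nascent libraries held 6477172 to 24234527 reads by their scaling. Trim28 transcript stood at 622, 622 and 626 TPM in DMSO and at 369, 365 and 382 TPM at 24 h, but dTAG-13 acts on the protein, so this does not test the labels. The pluripotency marker genes Pou5f1, Sox2, Nanog, Klf4, Esrrb and Zfp42 summed to 1745 to 1814 TPM in DMSO, 969 to 1058 TPM at 24 h and 188 to 216 TPM at 96 h. Pou5f1 made up most of the sum in DMSO, with a mean of 1162 TPM. Nanog went the other way at 24 h, from a mean of 136 TPM in DMSO to 199 TPM, while the rest were lower. All 6 stayed above 1 TPM in every ESC group. In NPCs the 6 neural markers summed to 3320 to 3364 TPM.

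Of the 174 genes, 169 were protein-coding and 5 were pseudogenes. A KRAB box was found in 110 of the 169 translated proteins, and the number of fingers had a median of 11, from 0 to 33. Clusters, defined as zinc finger genes at most 100 kb apart, held 127 members in 34 groups, and 47 members stood alone. KRAB boxes were found in 100 of the 126 clustered members with a protein and in 10 of the 43 that stood alone. For 22 members another gene encoded a protein of at least 90% identity over at least 80% of the length, so reads may have been divided between copies and their TPM is uncertain.

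When zinc finger genes at most 1000 kb apart were joined, a grouping made after the values were seen, the largest blocks by members were chromosome 13 at 65.3 to 67.8 Mb (20 members), distal chromosome 4 at 145.5 to 147.8 Mb (17 members), chromosome 7 at 24.1 to 25.2 Mb and at 29.8 to 30.2 Mb (14 members each), and distal chromosome 2 at 174.6 to 178.1 Mb (11 members). All 17 members of the distal chromosome 4 block had a KRAB box and 10 had a near-identical copy. In DMSO the members had a median of 8.33 TPM (quartiles 4.37 and 20.9), and 158 of 174 reached 1 TPM. The 194 other zinc finger genes had a median of 9.87 TPM. Members with a KRAB box had a median of 8.06 TPM and those without one 14.4 TPM. The distal chromosome 4 block stood out on this per-length scale. Its 16 members other than Zfp933 ranged from 39.0 to 163 TPM with a median of 71.8 TPM, against 7.90 TPM for the 157 members outside it.

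The most abundant member was Zfp106, an RNA-binding protein needed by motor neurons, at 189, 186 and 194 TPM in the DMSO libraries. Next came Zfp979 at 171, 161 and 158 TPM and Zfp978 at 156, 152 and 154 TPM, both of the distal chromosome 4 block, and Zfp978 is uncertain because of a near-identical copy. Zfp990, of the same block, had 117, 111 and 112 TPM, and Zfp428, on chromosome 7, had 101, 105 and 102 TPM. The spread among libraries was small beside the gap from Zfp106 to Zfp979, whereas the values of Zfp979 and Zfp978 lay next to each other.

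The promoters of the distal chromosome 4 block are shown because its members were the most abundant group and moved together in most comparisons below. For 10 of its 17 members RefSeq gives a start within 100 bases of the start in the expression tables. The 250 bases before the start are printed 5′ to 3′ on the gene's strand, from RefSeq on GRCm38.p6, the assembly also called mm10. Capitals mark letters that lie in a run of 12 found in at least 4 of the other promoters of the 10. Such runs can overlap, so a longer stretch of capitals need not occur whole in those promoters.
Zfp980 (chr4:145670447-145670696, plus strand): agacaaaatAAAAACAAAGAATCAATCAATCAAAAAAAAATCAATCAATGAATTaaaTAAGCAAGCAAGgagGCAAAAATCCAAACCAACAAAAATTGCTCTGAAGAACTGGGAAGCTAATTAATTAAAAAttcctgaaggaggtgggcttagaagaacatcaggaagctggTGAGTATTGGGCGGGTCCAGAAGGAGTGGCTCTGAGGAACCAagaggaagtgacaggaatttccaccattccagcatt
Zfp979 (chr4:147642509-147642758, minus strand): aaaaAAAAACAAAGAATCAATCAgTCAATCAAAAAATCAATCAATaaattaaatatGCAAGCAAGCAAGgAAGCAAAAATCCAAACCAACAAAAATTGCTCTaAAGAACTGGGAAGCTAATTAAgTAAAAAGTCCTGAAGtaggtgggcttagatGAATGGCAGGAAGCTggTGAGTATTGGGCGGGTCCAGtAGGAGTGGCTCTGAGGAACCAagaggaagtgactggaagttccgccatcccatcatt
Zfp534 (chr4:147702632-147702881, minus strand): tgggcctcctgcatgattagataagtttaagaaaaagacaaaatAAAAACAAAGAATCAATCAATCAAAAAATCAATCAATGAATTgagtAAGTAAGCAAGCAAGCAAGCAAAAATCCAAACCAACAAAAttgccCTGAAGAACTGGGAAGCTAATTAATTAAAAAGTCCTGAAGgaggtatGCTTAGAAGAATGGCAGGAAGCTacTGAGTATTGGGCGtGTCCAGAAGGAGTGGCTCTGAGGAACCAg
Zfp984 (chr4:147809789-147810038, minus strand): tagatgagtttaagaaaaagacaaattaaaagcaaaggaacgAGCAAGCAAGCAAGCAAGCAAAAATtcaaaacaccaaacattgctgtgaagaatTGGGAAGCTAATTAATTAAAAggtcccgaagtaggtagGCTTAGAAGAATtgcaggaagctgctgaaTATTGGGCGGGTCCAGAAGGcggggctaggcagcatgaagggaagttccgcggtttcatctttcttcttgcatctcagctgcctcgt
Zfp933 (chr4:147848419-147848668, minus strand): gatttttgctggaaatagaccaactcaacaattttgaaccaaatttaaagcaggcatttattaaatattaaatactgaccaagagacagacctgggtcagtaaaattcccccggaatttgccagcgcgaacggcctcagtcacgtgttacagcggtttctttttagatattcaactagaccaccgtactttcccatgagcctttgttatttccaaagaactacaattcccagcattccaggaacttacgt

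Shared letters covered 158 of the 250 bases of Zfp980, 177 of Zfp979, 186 of Zfp534, 78 of Zfp984 and 0 of Zfp933. Aligned end to end with Zfp980, the promoters of Zfp987, Zfp600, Zfp988, Zfp982, Zfp985, Zfp979 and Zfp534 were 90% to 93.4% identical, that of Zfp984 was 78.1% identical and that of Zfp933 was 61.3% identical. The 10 promoters had a median GC content of 40.6% and a median of 2 CG pairs, against 52.4% and 9 for the other members with a matched start, and 52.4% and 6 for all promoters in the table. Zfp933 thus lies at the edge of the block with a promoter that shares none of these runs, and its RNA is followed separately below.

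The first comparison asked how these genes respond in the hours after TRIM28 is degraded. All times were compared with the same DMSO libraries, so their results are not independent of each other. A gene is called changed where the limma adjusted p was below 0.05 and the difference was more than 2-fold on the log2(value + 0.5) scale, which understates the change of low genes. The RNA-seq filter, at least 1 TPM in at least 3 libraries, left 163 members in the test, and the nascent RNA filter left 107. Zfp683, Zfp831, Zfp366, Zfp457, Zfp541, Zfp389 and Zfp419 entered no test because of low values.

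Nascent RNA of the members moved little at first. At 2 h 0 of 107 members were changed, where 0.127% of all 13357 genes were changed higher and 0.0973% lower. At 6 h again 0 were changed, against 0.374% higher and 0.195% lower over all genes. At 24 h 2 were higher and 0 lower, against 2.49% and 0.906% of all genes. Counting every adjusted p below 0.05 by limma, 49 members were higher and 4 lower at 24 h, where 32.3% of all genes were higher and 5.59% lower. The median log2 difference was 0.27 for the members, 0.36 for the other zinc finger genes and 0.21 for all genes.

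Zfp30, a KRAB zinc finger gene of the 29.8 to 30.2 Mb block on chromosome 7, had 0.141, 0.208 and 0.205 FPKM in DMSO and 0.955, 1.09 and 0.822 FPKM after 24 h. The groups did not overlap, and the log2 difference was 1.09 (SE 0.0967, adjusted p = 6.24e-05). Behind these values lay means of 21.3 and 181 reads a library. Zfp629, of the chromosome 7 block at 127.2 to 127.9 Mb, had 0.751, 0.679 and 0.81 FPKM in DMSO and 1.87, 2.15 and 2.32 FPKM at 24 h, a log2 difference of 1.07 (SE 0.125, adjusted p = 0.000222). For both genes the difference fell below 2-fold with a pseudocount of 1 (0.72 and 0.83) and when libraries were centred on their median (0.84 and 0.82). In the block of Zfp30 9 of 12 members tested were higher and 0 lower by adjusted p. On distal chromosome 4 8 members could be tested in nascent RNA. At 6 h 0 of them were changed, where 0.374% of all genes were changed higher and 0.195% lower. At 24 h 2 were higher and 0 lower with a median of 0.14, where 32.3% of all genes were higher and 5.59% lower by adjusted p.

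In mature RNA 1 member was changed at 2 h, where 0.251% of all 17922 genes were changed higher and 0.123% lower. This was Zfp296, a zinc finger gene expressed in pluripotent cells. It had 36.3, 37.0 and 32.8 TPM in DMSO and 86.2, 85.7 and 82.7 TPM at 2 h, a log2 difference of 1.25 (SE 0.0751, adjusted p = 3.69e-07). The groups did not overlap. Its level then came down to 31.5, 35.1 and 33.5 TPM at 6 h, 19.2, 17.6 and 17.9 TPM at 24 h and 11.2, 13.7 and 14.1 TPM at 96 h. Nascent Zfp296 had 3.83, 4.05 and 4.37 FPKM in DMSO and 6.83, 6.54 and 7.03 FPKM at 2 h, again without overlap.

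Small rises were more frequent among the members than among all genes at 2 and 6 h. By adjusted p alone 41 members were higher and 18 lower at 2 h, against 8.25% and 7.02% of all genes. The median log2 difference was 0.09 for the members and -0.02 for all genes. At 6 h 70 of 163 were higher and 8 lower, against 18.4% and 15.5% of all genes, with medians of 0.22 and 0.03. Members with a KRAB box had 51 higher and 5 lower of 108 (median 0.27), and those without one had 19 higher and 3 lower of 53 (median 0.10). The other zinc finger genes had 74 higher and 7 lower of 184 (median 0.18), so the direction was not particular to the chosen chromosomes. Only Zfp773 was changed at 6 h, with 0.776% of all genes changed higher and 0.190% lower. Without DMSO replicate 2, which had its lowest DMSO value, its log2 difference was 0.97 and 0 members were changed.

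The distal chromosome 2 block followed this early pattern. In its members TPM is uncertain for 7 that have near-identical copies. The 10 tested members summed with the untested Zfp831 to 101, 90.8 and 101 TPM in DMSO, 143, 131 and 135 TPM at 2 h, 159, 130 and 139 TPM at 6 h, 110, 130 and 120 TPM at 24 h and 51.7, 50.1 and 50.5 TPM at 96 h. The sums at 2 and 6 h lay above all DMSO sums and those at 96 h lay below them. By adjusted p 7 of 10 were higher at 2 h (median 0.48), 9 at 6 h (median 0.49) and 5 at 24 h (median 0.20). At 96 h 9 were lower (median -0.94). Over all genes 8.25%, 18.4% and 42.9% were higher by adjusted p at 2, 6 and 24 h, and 37.4% were lower at 96 h. Zfp970, for example, had 14.4, 13.1 and 16.3 TPM in DMSO, 23.8, 23.3 and 23.3 TPM at 2 h and 26.8, 22 and 23.9 TPM at 6 h, with no overlap at either time.

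At 24 h 13 members were changed higher and 1 lower, against 10.1% and 2.01% of all genes, so the share of members changed higher lay below that of all genes. By adjusted p alone 79 were higher and 34 lower, against 42.9% and 25.0%. Medians were 0.19 for the members, 0.35 for the other zinc finger genes, of which 10 were changed higher and 2 lower, and 0.13 for all genes. Once libraries were centred on their median, the median of all genes was -0.16 and the split of changed members became 3 higher and 5 lower. Of the 13, 8 had a KRAB box. Chromosome 7 held Zfp773, Zfp30, Zfp420, Zfp575, Zfp688, Zfp579, Zfp61 and Zfp954, chromosome 13 held Zfp455, Zfp712, Zfp456 and Zfp934, and chromosome 4 held Zfp362.

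Zfp773, of the chromosome 7 block at 6.1 to 7.2 Mb, moved most. It had 2.64, 2.13 and 3.32 TPM in DMSO, 4.94, 4.74 and 4.94 TPM at 2 h, 6.76, 5.98 and 6.11 TPM at 6 h, 22.7, 30.3 and 27.7 TPM at 24 h and 1.44, 1.84 and 1.54 TPM at 96 h. Its libraries at 2, 6 and 24 h lay above all DMSO libraries and those at 96 h below them. The log2 difference was 1.10 (SE 0.13, adjusted p = 5.54e-05) at 6 h and 3.11 (SE 0.13, adjusted p = 2.34e-10) at 24 h. Nascent Zfp773 had 0.34, 0.361 and 0.272 FPKM in DMSO and 0.579, 0.574 and 1.21 FPKM at 24 h, a log2 difference of 0.61 (adjusted p = 0.0207). The 11 genes of its block summed to 70.6, 70.3 and 74.1 TPM in DMSO, 135, 139 and 141 TPM at 24 h and 83.5, 90.7 and 88.4 TPM at 96 h. Of the 10 tested, 8 were higher and 0 lower at 24 h by adjusted p, where 42.9% of all genes were higher and 25.0% lower. Zfp773 and Zfp954 were changed.

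Mature Zfp30 had 2.14, 2.11 and 1.79 TPM in DMSO, 9.28, 8.88 and 8.37 TPM at 24 h and 6.96, 6.79 and 6.31 TPM at 96 h. Its neighbour Zfp420 had 5.54, 5.46 and 5.5 TPM in DMSO, 14.1, 15.0 and 13.6 TPM at 24 h and 3.11, 3.23 and 3.03 TPM at 96 h. Neither gene's groups overlapped, with log2 differences of 1.90 (SE 0.0868) and 1.30 at 24 h, and Zfp30 stayed high at 96 h (1.52) while Zfp420 went below DMSO. Zfp455, of the chromosome 13 block and uncertain because of a near-identical copy, had 0.41, 0.7 and 0.778 TPM in DMSO and 2.92, 2.04 and 1.73 TPM at 24 h (1.26). Zfp575, of the chromosome 7 block at 24.1 to 25.2 Mb, had 1.63, 1.15 and 1.64 TPM in DMSO, 3.67, 3.53 and 4.41 TPM at 24 h (1.15) and 5.41, 5.59 and 5.57 TPM at 96 h (1.62). The values of both separate from DMSO, yet with a pseudocount of 1 each stood at 0.98 at 24 h, below the 2-fold limit. The changed member that fell was Zfp428, with 101, 105 and 102 TPM in DMSO, 36.9, 36.7 and 37.5 TPM at 24 h (-1.46, SE 0.0444) and 44.9, 43.2 and 43.5 TPM at 96 h.

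**Figure D1:**
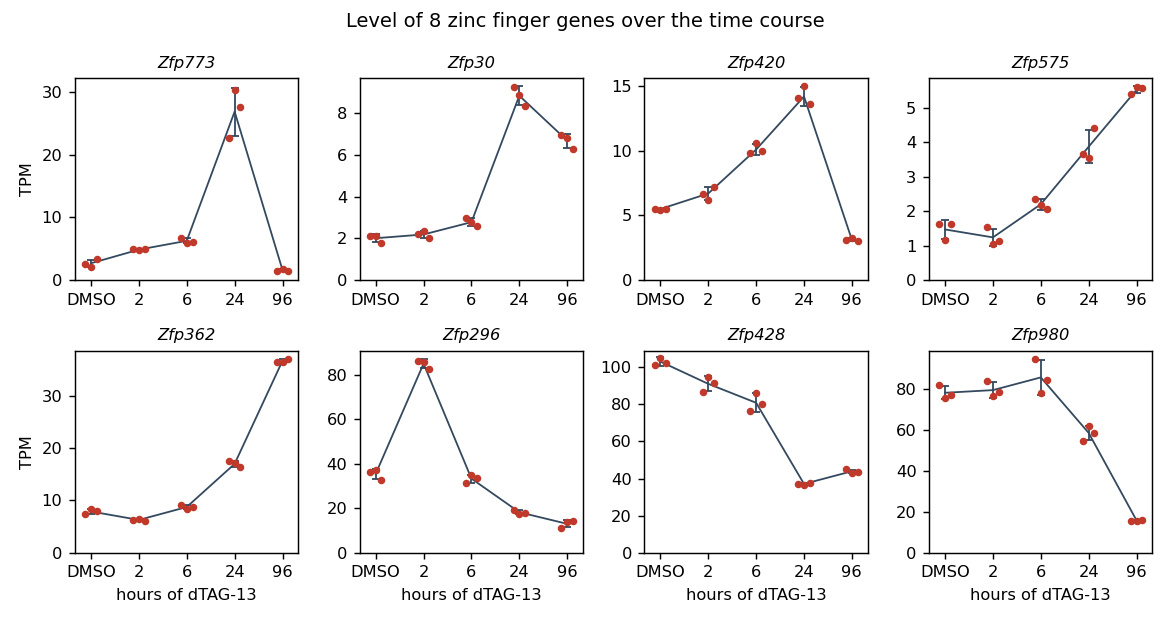
TPM of 8 members at each time of dTAG-13 in the tagged line. Points are the 3 libraries, the line joins the means, and bars are the SD. Zfp773, Zfp30 and Zfp420 are highest at 24 h, Zfp296 is highest at 2 h, Zfp362 and Zfp575 are highest at 96 h, and Zfp428 and Zfp980 are lower at 24 h than in DMSO.

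At 96 h the balance turned. Of 163 members 12 were changed higher and 32 lower, against 20.3% and 12.4% of all genes, and by adjusted p alone 52 were higher and 84 lower, against 42.9% and 37.4%. The median log2 difference was -0.18 for the members and 0.05 for all genes, and after centring the split was 7 higher and 47 lower. Members with a KRAB box had 6 changed higher and 27 lower (median -0.32), and those without one had 6 and 5 (median -0.03). Of the 27, 12 lay in the distal chromosome 4 block, whose 17 members all have a KRAB box. The part of the block in this split was not tested. Among the other zinc finger genes 22 of 184 were changed higher and 9 lower (median 0.09). The DMSO libraries, titled 0 h and treated for 24 h by their notes, are no time-matched control for 96 h. At 96 h the pluripotency markers had also come down as given above, the 8 fibroblast markers, of which 7 exceeded 1 TPM, had gone from 21.5 to 22.2 TPM up to 275 to 298 TPM, and the 5 endoderm markers had gone from 5.12 to 7.47 TPM up to 38.5 to 41.9 TPM. Their part in the result was not tested, and in these bulk libraries fewer cells that express a gene cannot be told apart from less RNA in each cell.

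Of the 32 members changed lower, 12 lay in the distal chromosome 4 block, 5 in the distal chromosome 2 block and 3 in the chromosome 13 block. Outside distal chromosome 4 there were 12 changed higher and 20 lower of 146 tested, with a median of -0.14. Over all genes 20.3% were changed higher and 12.4% lower. Zfp980 had 81.7, 75.4 and 77.1 TPM in DMSO, 54.8, 62.0 and 58.6 TPM at 24 h and 15.6, 15.5 and 16.2 TPM at 96 h, a log2 difference of -2.27 (SE 0.0652) at 96 h. Its libraries fell in separate ranges at the 3 times. Next in size were Zfp459 of chromosome 13, with 10.1, 9.42 and 12.1 TPM in DMSO and 1.93, 1.75 and 1.78 TPM at 96 h (-2.24), and Zfp987, with 68.7, 64.9 and 64.0 TPM against 13.8, 14.4 and 15.0 TPM (-2.16). Zfp600 (-2.12) and Zfp981 (-2.06), both of the chromosome 4 block, came next. The block's 16 members other than Zfp933 summed to 1322, 1257 and 1259 TPM in DMSO, 1359, 1227 and 1293 TPM at 2 h, 1436, 1193 and 1262 TPM at 6 h, 1108, 1215 and 1183 TPM at 24 h and 434, 453 and 448 TPM at 96 h. Ranges overlapped DMSO at 2 and 6 h and not at 24 or 96 h. Zfp933 had a log2 difference of 0.04 at 96 h.

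Among the members changed higher at 96 h, Zfp362 of chromosome 4 had 7.45, 8.34 and 7.91 TPM in DMSO and 36.5, 36.5 and 37.0 TPM at 96 h (2.15). Zfp768 had 6.6, 7.01 and 6.77 TPM against 22, 22.1 and 21.6 TPM (1.62). Zfp46 had 3.4, 3.21 and 3.77 TPM against 12.5, 9.52 and 12.6 TPM (1.59). No library of these 3 genes at 96 h came near its DMSO range, and Zfp575, Zfp30, Zfp579, Zfp28, Zfp334, Zfp37, Zfp456, Zfp688 and Zfp324 made up the rest of the 12.

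**Figure D2:**
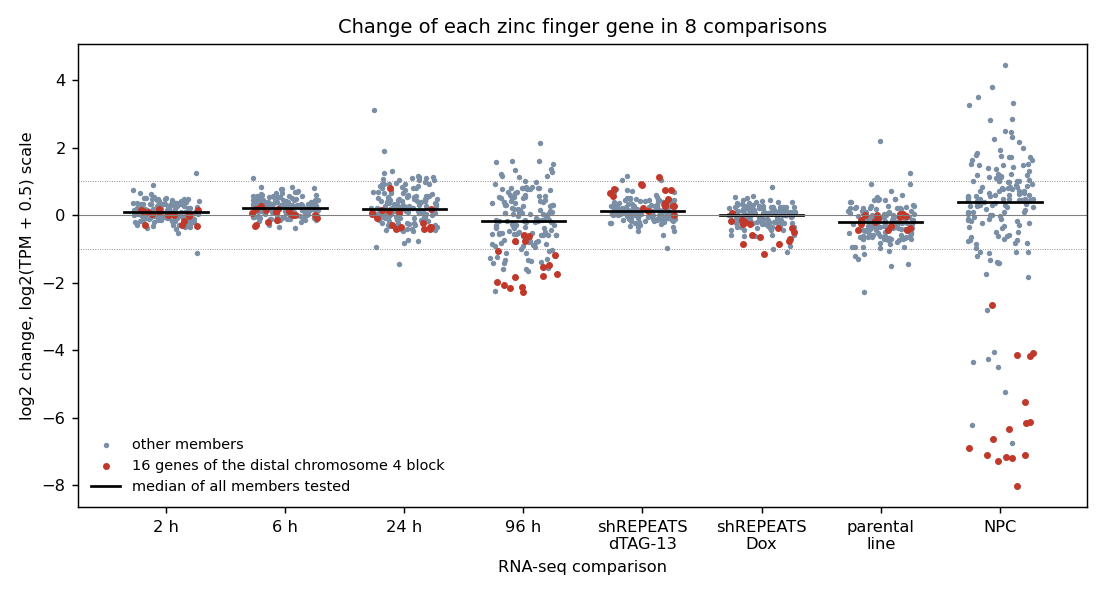
Change of each member tested, on the log2(TPM + 0.5) scale, in 8 RNA-seq comparisons, of which some share a control group. Each point is 1 gene, red points are the 16 distal chromosome 4 genes without Zfp933, black bars are medians of all members tested and dotted lines mark a 2-fold difference. The red points lie lowest at 96 h and in NPCs and lie above 0 for dTAG-13 in the shREPEATS line.

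The second comparison concerned the shREPEATS line, which asks whether the response to dTAG-13 depends on the retroviral transcripts. After 24 h of dTAG-13 4 of 161 members were changed higher and 0 lower, against 2.38% and 1.44% of 16166 genes. By adjusted p 64 were higher and 12 lower, against 41.2% and 12.8%, and the median was 0.14 both for the members and for all genes. After centring, 0 were changed higher and 1 lower. The libraries with dTAG-13 and Dox were compared with the same dTAG-13 libraries, so a rise with dTAG-13 and a fall with Dox are not independent of each other. For the dTAG-13 libraries the labels also give doxycycline before treatment, so these groups differ by their labels only in doxycycline during it. With Dox 0 members were changed higher and 2 lower, against 1.49% and 1.96%, and by adjusted p 29 were higher and 41 lower, against 17.5% and 29.3%. Medians were -0.00 for the members and -0.04 for all genes.

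Zfp934, a KRAB gene on chromosome 13 with a close copy, had 11.5, 12.7 and 12.9 TPM in DMSO, 27.4, 28.3 and 28.6 TPM with dTAG-13 and 13.5, 13.5 and 12.0 TPM with dTAG-13 and Dox. Its log2 difference was 1.15 (SE 0.0633) for dTAG-13 and -1.09 for Dox. Zfp986, of the distal chromosome 4 block and also with a copy, had 14.9, 17.4 and 16.6 TPM, then 37.7, 34.6 and 36.0 TPM, then 16.1, 16.2 and 15.3 TPM, which gave 1.12 and -1.16. For both genes the dTAG-13 libraries lay above the other groups, which lay next to each other. Zfp575 had 1.05, 0.881 and 0.894 TPM in DMSO, 2.27, 2.94 and 2.3 TPM with dTAG-13 (1.05) and 1.19, 1.02 and 1.07 TPM with Dox added. Zfp37 had 9.03, 10.5 and 9.16 TPM, then 21.2, 19.7 and 19.1 TPM (1.03), then 9.66, 9.36 and 10.3 TPM. Zfp575 fell to 0.95 without dTAG-13 replicate 2 and Zfp37 to 0.99 without replicate 1 of either group, both under the 2-fold limit.

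The distal chromosome 4 block moved as a whole in this line. By adjusted p 15 of its 17 members were higher with dTAG-13 and 0 lower (median 0.48), against 41.2% and 12.8% of all genes. Once Dox was added 14 were lower and 0 higher (median -0.39), against 29.3% and 17.5% of all genes. Both counts rest on the same dTAG-13 libraries. The 16 members without Zfp933 summed to 596, 659 and 633 TPM in DMSO, 917, 855 and 901 TPM with dTAG-13 and 645, 659 and 631 TPM with dTAG-13 and Dox. The dTAG-13 sums lay above both other groups, whose ranges overlapped. The 5 markers of the 2-cell state moved beside them, with 133 to 155 TPM in DMSO, 344 to 400 TPM with dTAG-13 and 160 to 171 TPM with Dox. The pluripotency markers moved the other way, from 769 to 868 TPM down to 391 to 399 TPM and back to 822 to 838 TPM. In the time course the 2-cell markers summed to 156 to 172 TPM in DMSO, 134 to 152 TPM at 24 h and 239 to 273 TPM at 96 h, where the sum of the block was lowest. Their part and that of the pluripotency markers in the result was not tested.

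In the time course at 24 h the same 17 genes had 2 higher and 9 lower by adjusted p with a median of -0.24. Over all genes 42.9% were higher and 25.0% lower by adjusted p. The difference between the 24 h effects was tested directly by an interaction term over 17653 genes, of which 9071 had an adjusted p below 0.05 by limma. The experiments differ in clone, in the hairpin transgene, in the doxycycline that the labels give to all shREPEATS groups, in library kit and, by the labels, in growth on feeders, and these cannot be told apart. On distal chromosome 4 the effect was greater in shREPEATS for 16 of 17 members and smaller for 0, with a median difference of 0.66. Over all 163 members tested 35 were greater and 42 smaller (median -0.06), and outside distal chromosome 4 19 of 146 were greater and 42 smaller (median -0.14). Together 77 of the 163 had an adjusted p below 0.05 by limma, a slightly smaller share than that of all genes. The count over all genes was not split by direction, so whether any block departs from a general shift between the experiments was not tested. The chromosome 7 blocks were mixed. At 29.8 to 30.2 Mb 1 of 14 was greater and 8 smaller (median -0.52), and at 6.1 to 7.2 Mb 0 of 10 were greater and 6 smaller (median -0.46). At 41.5 to 43.6 Mb 3 of 9 were greater and 1 smaller (median 0.24), and the blocks at 24.1 to 25.2 Mb and 127.2 to 127.9 Mb had medians of -0.04 and -0.02.

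**Figure D3:**
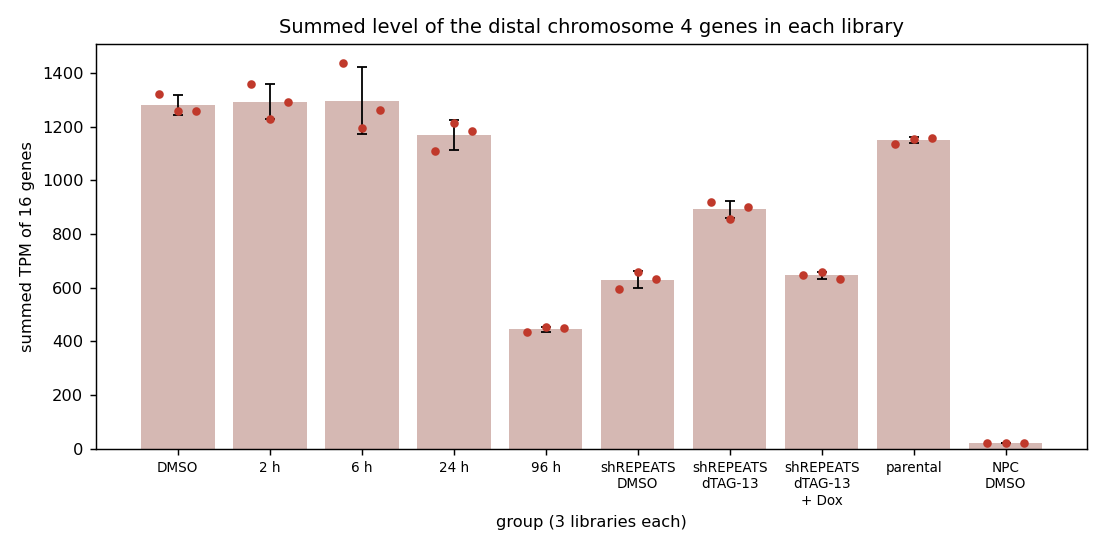
Summed TPM of the 16 distal chromosome 4 genes without Zfp933 in each group. Bars start at 0 and give the mean, points the 3 libraries and whiskers the SD. The sum is 434 to 453 TPM at 96 h and 20.3 to 20.8 TPM in NPCs, and within the shREPEATS line it is highest with dTAG-13.

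Parental ESCs were then set against the tagged cells in DMSO. They differ in the tag and in treatment, and the labels describe a feeder layer for the parental cells and feeder removal for the tagged cells, whereas the study's methods describe removal for its RNA-seq in general. The fibroblast markers summed to 103 to 105 TPM in the parental libraries and 21.5 to 22.2 TPM in DMSO. The pluripotency markers summed to 3295 to 3318 TPM against 1745 to 1814 TPM and the 2-cell markers to 12.7 to 13.4 TPM against 156 to 172 TPM. The part of these in the result was not tested. Of 166 members 2 were changed higher and 7 lower in parental cells, against 2.25% and 9.15% of 17458 genes, and after centring the split was 4 and 5. Zfp264 had 0.436, 0.278 and 0.621 TPM in tagged cells and 3.84, 3.85 and 3.82 TPM in parental cells (2.21), and Zfp367 had 17.7, 18.1 and 18.8 TPM against 43.5, 43.4 and 44.1 TPM (1.24). Both were higher in every parental library. Zfp618 showed the widest fall, from 7.04, 7.39 and 7.46 TPM in tagged cells to 1.04, 1.31 and 0.994 TPM (-2.28). Zfp93 (-1.50), Zfp768 (-1.46), Zfp738 (-1.29) and Zfp27 (-1.21) were also lower, with no overlap of their libraries. Members of the distal chromosome 4 block other than Zfp933 summed to 1136, 1153 and 1158 TPM in parental cells, and none of the block was changed.

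Between ESCs and NPCs 43 of 166 members were changed higher in NPCs and 35 lower, against 25.9% and 20.7% of all genes, and after centring 28 and 46. The median was 0.40 for the members, 0.15 for all genes and 0.79 for the other zinc finger genes, of which 79 of 181 were changed higher and 17 lower. Members with a KRAB box had 22 higher and 30 lower, and those without had 20 higher and 4 lower. The 30 include the 16 members of the distal chromosome 4 block other than Zfp933, all with a KRAB box. The part of the block in this split was not tested. The largest rise was that of Zfp536, a repressor linked to neuronal differentiation, with 0.671, 0.744 and 0.978 TPM in ESCs and 29.2, 26.7 and 27.7 TPM in NPCs (4.45). Zfp362 reached 119, 115 and 119 TPM (3.81) and Zfp46 44.9, 44.7 and 44.4 TPM (3.51). Zfp629 had 5.6, 5.36 and 6.4 TPM against 61.5, 61.9 and 65.2 TPM (3.34), and Zfp579 had 7.19, 6.12 and 8.95 TPM against 74.5, 75.1 and 74.6 TPM (3.26). None of the 5 overlapped between the cell types.

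The falls were led by the distal chromosome 4 block, in which 16 of 17 members were changed lower with a median of -6.32. Zfp978 had 0.126, 0.103 and 0.0443 TPM in NPCs (-8.03). Zfp988 went from 89.3, 83.0 and 83.5 TPM to 0.0173, 0.0788 and 0.0484 TPM (-7.29), and Zfp980 to 0.0593, 0.0297 and 0.0337 TPM (-7.18). Zfp534 (-7.15) and Zfp981 (-7.10) came next. Near 0 these differences are set by the pseudocount and understate the fold. Together the 16 summed to 20.8, 20.4 and 20.3 TPM in NPCs, where they had 1322, 1257 and 1259 TPM in ESCs. Zfp933 was the exception, with 4.30, 4.39 and 5.05 TPM in ESCs and 10.30, 11.20 and 10.50 TPM in NPCs (1.14). Chromosome 13 at 65.3 to 67.8 Mb held 5 members changed lower and chromosome 7 at 41.5 to 43.6 Mb held 4. Zfp936 and Zfp640 were listed at 0 in all 3 NPC libraries, with 53.8, 50.3 and 55.4 TPM and 39.2, 33.3 and 39.1 TPM in ESCs.

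H3K9me3 over the members was read from peaks that were called in each library. The libraries held 118318, 126470 and 104579 peaks in DMSO and 11474, 105690 and 147611 after 24 h of dTAG-13, and dTAG-13 replicate 1 stood apart with 5.32 Mb covered. To limit this, the 10000 peaks of highest fold enrichment were used in each. Of the 174 gene bodies 22.4%, 23.6% and 24.1% met such a peak in DMSO (23.4% ± 0.878, SD, n = 3) and 8.62%, 3.45% and 11.5% after dTAG-13 (7.85% ± 4.08, SD, n = 3). The groups did not overlap, and the difference of -15.5 percentage points had a two-sided exact permutation p = 0.1, the smallest that 3 against 3 libraries allow, so no test of these peaks can pass 0.05. Without dTAG-13 replicate 1 it was -15.9. Among 5248 other protein-coding genes of similar length the share was 2.47% in DMSO and 2.2% after dTAG-13, and among all genes 4.4% and 3.22%. The difference between the members and the genes of similar length went from 20.9 to 5.65 percentage points (exact permutation p = 0.1). The other zinc finger genes had 14.6% and 2.75%, and the test of the change against them gave an exact permutation p = 0.2.

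With all deposited peaks 54%, 51.7% and 48.9% of the members met a peak in DMSO and 13.2%, 24.1% and 25.9% with dTAG-13. Means were 51.5% and 21.1% for the members, 16.2% and 6.73% for genes of similar length, and 18.2% and 10.2% for all genes. The other zinc finger genes had 42.8% and 12%, a difference of -30.8 percentage points, against -30.5 for the members. With all peaks the share thus fell in each of these sets. Across the members the covered share of the gene body averaged 7.67%, 13.3% and 11.1% in DMSO and 0.332%, 1.93% and 3.04% with dTAG-13. The difference was -8.91 percentage points (exact permutation p = 0.1) and -8.2 without dTAG-13 replicate 1. By gene, mean cover was lower for 101 members, higher for 2 and equal for 71, the 71 being those with no peak in any library. In 69 of 174 every dTAG-13 library lay below every DMSO library, against 8.43% of all 54446 genes, and in 0 every one lay above, against 0.0349%. Only genes with a peak in DMSO can fall in this way, and these were a larger share of the members than of all genes. Zfp419 was one of the members with higher mean cover, at 42.5%, 49.6% and 47.1% in DMSO, against 12.0%, 78.9% and 84.8% after dTAG-13, values that spread around those of DMSO.

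**Figure D4:**
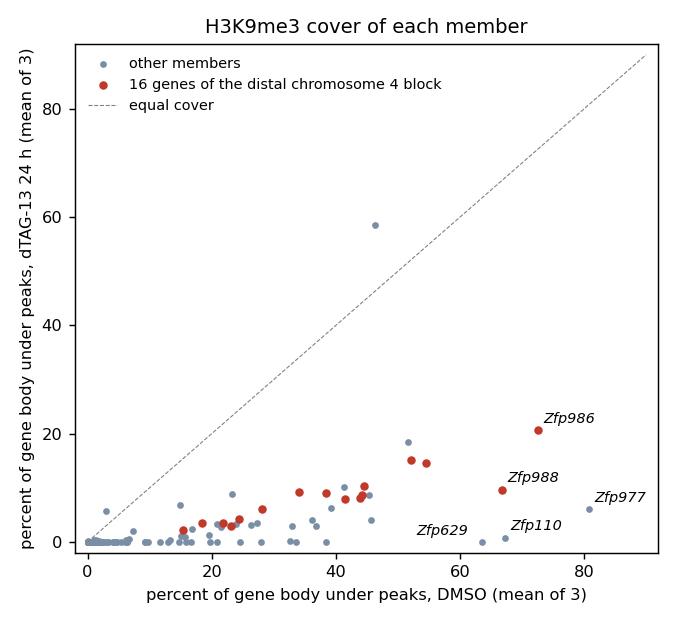
Mean percent of the gene body under H3K9me3 peaks in 3 DMSO libraries (horizontal axis) and 3 dTAG-13 libraries at 24 h (vertical axis), 1 point per member. Red points are the 16 distal chromosome 4 genes without Zfp933, and the dashed line marks equal cover. Nearly every marked member lies under the line, and the point above it near 46% is Zfp419.

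The members with the most H3K9me3 in DMSO were spread over blocks. Zfp977, of the chromosome 7 block at 41.5 to 43.6 Mb, was covered over 61.3%, 89.6% and 91.7% of its body in DMSO and 0%, 6.2% and 11.9% after dTAG-13. Zfp986 had 47.6%, 90.1% and 80.1% against 3.31%, 24.3% and 34.6%. Zfp110, whose protein binds the p75 neurotrophin receptor, had 47.4%, 82.3% and 72.1% against 0%, 0% and 2.45%. None of these overlapped between the groups, nor did Zfp988, with 41.6%, 84.4% and 74.4% against 3.09%, 8.9% and 17%. Zfp629 had 66.5%, 61.6% and 62.4% in DMSO and no peak after dTAG-13.

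The mark lay toward the 3′ end of the members. The last 3 kb met a peak in 37.4%, 38.5% and 36.8% of members in DMSO and in 9.2%, 14.9% and 14.9% after dTAG-13, and the window of 1 kb on either side of the start in 9.77%, 12.6% and 11.5% against 0.575%, 1.72% and 1.15%. In genes of similar length the last 3 kb met a peak in 4.8% and then 2.46%. Along the body, cut into 20 equal parts, the share of members under a peak in DMSO was highest in part 18 for replicates 1 and 3 and in part 19 for replicate 2, where 27.6%, 31.0% and 34.5% of members lay under a peak, against 10.3% to 12.1% in the first part. All 3 DMSO libraries had a peak in the last 3 kb of 56 members, and all 3 dTAG-13 libraries in 16.

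**Figure D5:**
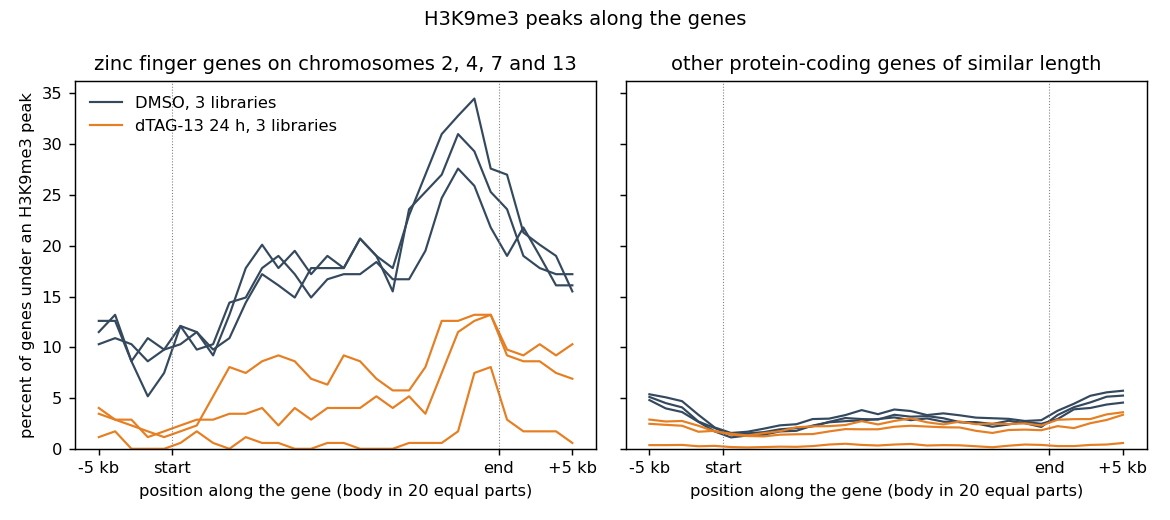
Percent of genes under an H3K9me3 peak along the gene, from 5 kb before the start to 5 kb after the end, with the body cut into 20 equal parts. Each line is 1 library, blue for DMSO and orange for 24 h of dTAG-13, with the 174 members on the left and other protein-coding genes of similar length on the right. In members the DMSO lines rise toward the 3′ end, and the lowest dTAG-13 line is replicate 1, the library with few peaks.

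On distal chromosome 4 all 17 members met a peak in every DMSO library, and 14, 16 and 17 did so after dTAG-13. Cover of the body was 25.4%, 49.5% and 43.3% in DMSO and 1.68%, 7.56% and 15.5% under dTAG-13. Cover fell from 39.4% to 8.23%, and the change exceeded that of the members as a whole by 22.2 percentage points (exact permutation p = 0.1). Around the start 10, 13 and 13 of the 17 met a peak in DMSO and 0 in any dTAG-13 library, whereas the last 3 kb kept one in 12, 15 and 15 of 17. In RNA of the tagged line at the same time the 16-gene sum was 1108 to 1215 TPM, below the 1257 to 1322 TPM of DMSO. Members with a KRAB box went from 29.1% to 9.09% by the 10000 highest peaks and those without from 12.4% to 3.39% (exact permutation p = 0.2 for the difference of the changes). Clustered members went from 25.7% to 6.82% and those standing alone from 17% to 10.6% (exact permutation p = 0.1).

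Members with and without the mark differed little in the count changed more than 2-fold and in the median at 24 h in the time course. Of 72 tested members with a peak in every DMSO library 6 were changed higher and 0 lower (median 0.19). Of 67 with no peak in DMSO 6 were changed higher and 1 lower (median 0.18), where 10.1% of all genes were changed higher and 2.01% lower. The shREPEATS counts that follow use adjusted p alone, so the counts of the 2 experiments are not comparable. No H3K9me3 library came from the shREPEATS line, so marked there still means marked in the DMSO libraries described above. In the shREPEATS line by adjusted p 42 of 71 marked members were higher with dTAG-13 and 2 lower (median 0.27), against 18 and 8 of 66 unmarked members (median 0.05), where 41.2% of all genes were higher and 12.8% lower. With Dox 2 marked members were higher and 32 lower (median -0.16), against 21 and 8 unmarked (median 0.08), where 17.5% of all genes were higher and 29.3% lower. All 17 distal chromosome 4 genes are among the marked, and they made up 15 of the 42 and 14 of the 32. At the level of single genes, Zfp30 had 23.4%, 33.8% and 26.5% of its body covered in DMSO and no peak after dTAG-13, and Zfp773 had 13.2%, 21.4% and 10.4% against 0%, 3.46% and 0%. Zfp428, Zfp296, Zfp362, Zfp768, Zfp455 and Zfp459 had no H3K9me3 peak in DMSO.

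At the starts H3K27Ac, a mark of active promoters, was called for 147, 148 and 146 members in DMSO and 114, 153 and 113 after dTAG-13 (exact permutation p = 0.4). The ranges overlapped, and these libraries held 88050, 117475 and 96407 peaks in DMSO, against 30259, 117348 and 45662 with dTAG-13. H3K27Ac met on average 84.5% of member starts in DMSO and 72.8% after dTAG-13, against 27.9% and 21.3% of all starts. In genes of similar length it met 55% and 44.4%. On distal chromosome 4 it was called at 12, 13 and 12 starts in DMSO and 12, 16 and 17 after dTAG-13 (exact permutation p = 0.4). RNAPII peaks met 55.7% of member starts in DMSO and 31.6% after dTAG-13 and 20.9% and 11.2% of all starts, with 2 libraries a group and a smallest exact p of 0.333. The dTAG-13 libraries held 8182 and 7689 RNAPII peaks in all and those of DMSO 19853 and 19194, and the part of this in the result was not tested. On distal chromosome 4 RNAPII peaks met 8 and 8 of 17 starts in DMSO and 9 and 8 with dTAG-13.

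Of 20 genes of the TRIM28 and H3K9 pathway, all tested, 0 were changed in nascent RNA at any time. In mature RNA 2 were changed lower at 24 h, Dnmt3l (-1.67), a cofactor of DNA methylation, and Smarcad1, a chromatin remodeller just past the 2-fold limit. At that time 2.01% of all genes were changed lower. At 96 h 6 were changed lower, Atrx, Cbx1, Dnmt3l, Fam208a, Trim28 and Uhrf1, and by adjusted p 18 were lower and 2 higher with a median of -0.67, where 12.4% of all genes were changed lower and 37.4% were lower by adjusted p. In NPCs Dnmt3l (-9.92), Morc3 (-1.40) and Trim28 (-1.12) were changed lower, where 20.7% of all genes were changed lower. In parental cells Trim28 was changed higher (1.16), with 1418, 1389 and 1387 TPM, and Pphln1 lower (-1.05). Over all genes 2.25% were changed higher in parental cells and 9.15% lower. In the shREPEATS line Dnmt3l was changed lower with dTAG-13 (-1.04), where 1.44% of all genes were changed lower.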

How the data were processed

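Per the methods of the study, reads of TT-SLAM-seq were filtered of ribosomal RNA, aligned and counted by gene where they carried T to C conversions, and the authors deposited these counts as FPKM over the whole gene, with no spike-in. Of low values, 98.6% to 99.4% per library were whole reads within 0.1. The authors aligned RNA-seq reads to mm10 with STAR 2.7.5a and deposited StringTie 2.0.6 gene tables of TPM and of read coverage per base, which served for relative depth only, in 1 table a library. Deposited ChIP-seq peaks carry the fold enrichment of MACS2 over background and were called per library; settings are not given in the sources used here.

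Groups came from the sample labels. limma 3.58.1 (R 4.3.3, lmFit and eBayes with trend) was fitted to log2(value + 0.5) over all genes with at least 1 TPM or 0.5 FPKM in at least 3 libraries, and adjusted p-values are Benjamini-Hochberg over all genes tested. Changed means an adjusted p below 0.05 and more than 2-fold. The time course, TT-SLAM-seq, the shREPEATS line and the cell lines were fitted separately, the last with parental, DMSO and NPC libraries. Peak shares were compared by two-sided exact permutation tests (scipy 1.17.1). Fits were tested on simulated data. Proteins were GENCODE translations, searched with BLAST+ 2.17.0, where the plan had named RefSeq proteins. Fingers and KRAB boxes were found by letter patterns, which can miss degenerate boxes.

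Members and lists were chosen with earlier results of these data known. Named genes are the 5 largest rises and falls among changed members without overlap at 24 h, 96 h, in nascent RNA at 24 h, in shREPEATS, parental cells and NPCs, the 5 most abundant and the 5 most covered in DMSO, and every member changed at 2 or 6 h; others were named after their values were seen. Alternatives were pseudocounts of 0.1 and 1, no filter, centring, a replicate block, leaving out each library, and other numbers of peaks. Leaving out members with near-identical copies and the grouping into blocks, by KRAB box and by mark were added after the data were seen. Copies, overlapping genes and multi-mapping reads make levels uncertain where named. ChIP-seq peaks of the Mediator subunit Med23 and the series' other samples were not used here.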

Additional observations from a re-analysis of the deposited data

Results flagged for a closer look

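Of 9 members named above for the size of their change at 24 h, 7 had an effect that differed between the shREPEATS line and the time course by the limma interaction term. Since each was named for a large change in 1 of the 2 experiments, the choice itself favours a difference. The experiments also differ in clone, hairpin transgene, the doxycycline labelled for shREPEATS, library kit and labelled growth on feeders, which cannot be told apart, and 9071 of all 17653 genes tested also had an adjusted p below 0.05.

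Zfp773 stood at 3.11 on the log2 scale in the time course and 0.44 in shREPEATS, a difference of -2.67 (adjusted p = 1.17e-06). Zfp30 stood at 1.9 and 0.71 (-1.19, adjusted p = 1.04e-05) and Zfp420 at 1.3 and 0.13 (-1.17, adjusted p = 2.53e-05). Zfp455 stood at 1.26 and 0.49 (-0.77, adjusted p = 0.0421). Zfp428, which fell by 1.46 in the time course, stood at -0.19 in shREPEATS (difference 1.27, adjusted p = 5.96e-07). With the greater rise in shREPEATS, Zfp986 stood at 0.15 and 1.12 (0.98, adjusted p = 6.34e-06) and Zfp37 at 0.52 and 1.03 (0.52, adjusted p = 0.0018).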

How the results depend on the processing

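No peak share or named gene turned its direction under the alternatives tried. With a pseudocount of 0.1 the number of changed members became 1 in nascent RNA at 6 h, 8 in nascent RNA at 24 h, 4 for Dox in shREPEATS and 16 in parental cells. With a pseudocount of 1 it became 0 in nascent RNA at 24 h, 0 in RNA-seq at 6 h, 9 at 24 h and 2 for dTAG-13 in shREPEATS. Centring libraries on their median gave 1 in nascent RNA at 24 h, 8 in RNA-seq at 24 h and 1 for dTAG-13 in shREPEATS. Without the members that have near-identical copies, an alternative chosen after seeing the data, 2 were changed for dTAG-13 in shREPEATS and 0 for Dox. With 1 library left out at a time the count ran from 0 to 1 in nascent RNA at 6 h (1 without 6 h replicate 2), from 1 to 2 in nascent RNA at 24 h (1 without 24 h replicate 1 or 2) and from 0 to 1 in RNA-seq at 6 h (0 without DMSO replicate 2). Dropping the filter on low values moved no count by more than 1.5 times. For the H3K9me3 share the 5000 highest peaks gave -11.9 and all peaks -30.5 percentage points, and body cover by the 10000 highest peaks changed by -3.95.

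The replicate numbers shared by groups do not pair the libraries. Same-numbered deviations correlated between -0.16 and 0.18 in nascent RNA, -0.06 and 0.12 in the time course, -0.20 and 0.06 in shREPEATS and -0.03 and 0.11 among the cell lines. Fits with the replicate number as a block gave 0, 0 and 2 changed members in nascent RNA, 1, 1, 14 and 44 over the time course, 4 and 2 in shREPEATS, 9 in parental cells and 78 in NPCs, as without it. Depth limits the low genes most, since the nascent library with the fewest reads held 6477172 and 67 of 174 members did not pass the nascent RNA filter.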
